A study of Mus musculus with 4 samples.

Results

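The cells described here were macrophage-lineage cells of the mouse colon in which no Ly6c2 message was captured, and which held much message of MHC class II and little of C1q. They were chosen from the counts of unique molecular identifiers (UMIs, each standing for 1 captured RNA molecule) in each cell. For every cell, M was the sum of H2-Aa, H2-Ab1, H2-Eb1 and Cd74 and C was the sum of C1qa, C1qb and C1qc, both per 10000 UMIs of that cell. Members held 0 UMIs of Ly6c2, an M of at least 200, a C under 120, at most 1 UMI of AA467197 and 0 UMIs of Cd209a. The rule took 651 of the 5420 cells, or 12.01%, of which 108 came from chow mouse 9, 164 from chow mouse 11, 140 from HFD mouse 1 and 239 from HFD mouse 3. A capture of 0 UMIs does not show that a cell lacked Ly6c2. After each cell was thinned to 1500 UMIs, leaving out cells below that depth, 100, 135, 169 and 310 cells met the rule, where 91, 105, 96 and 179 of the cells kept had met it unthinned. Values of mice are given in this order throughout, chow 9 and 11 first and HFD 1 and 3 second.

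All 4 animals were male C57BL/6N mice, 6 to 7 weeks old when the diets began, and were fed either normal chow (2 mice) or a coconut-based high-fat diet (HFD, 60% fat, 2 mice) for 1 week. Colonic lamina propria cells of each mouse were sorted as live, CD45+, Lin-, CD11b+, CD24- and positive for Ly6C or CD64, and each mouse filled 1 well of a droplet system that reads the 3′ ends of transcripts. Mouse and library were therefore the same unit, and diet effects rest on 2 mice against 2. The smallest two-sided p that an exact permutation test of 1 value can reach with these numbers is 0.33.

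Colonic macrophages are replenished from blood monocytes. A monocyte enters the lamina propria with high Ly6C and CCR2, gains MHC class II, loses Ly6C and, as it matures, gains CX3CR1, the complement protein C1q and scavenger receptors such as CD163 and CD206. Cells that have lost Ly6C, hold MHC class II and have not gained much C1q stand partway along this path by their markers.

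The label was checked against genes that the rule did not use. Ccr2, the chemokine receptor with which monocytes leave the bone marrow, stood at 732, 622, 676 and 715 CPM (UMIs of a gene per 1000000 UMIs of the summed cells) in the members. In cells that passed the same conditions except for a C of at least 120, called C1q-high cells here, it stood at 177, 246, 376 and 353 CPM. The level of Ccr2 was higher in the members than in the C1q-high cells of every mouse. After thinning each cell to 1500 UMIs, 17, 59, 44 and 60 members below that depth were left out. Of the 91, 105, 96 and 179 that remained, 45.1% (95% exact binomial interval 34.6 to 55.8), 45.7% (36.0 to 55.7), 50% (39.6 to 60.4) and 54.8% (47.2 to 62.2) kept a Ccr2 UMI. Without thinning, a Ccr2 UMI was present in 54.6%, 50%, 67.1% and 65.7% of all members. The thinned share was 16.4%, 21.9%, 30.1% and 33.7% in C1q-high cells, whose median depths of 4360, 4026, 3578 and 4327 UMIs lay above the 3187, 2194, 2392 and 2459 UMIs of the members. In cells with Ly6c2 UMIs that met the other conditions it was 33.3%, 76%, 63.0% and 58.8%, of 3, 25, 92 and 335 cells. Ccr2 thus set the members apart from C1q-high cells but not from these cells, which exceeded them except in chow mouse 9.

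Macrophage genes were present in the members of all 4 mice. Csf1r, the receptor for the growth factor that macrophages need, had 703, 813, 618 and 599 CPM. Other macrophage markers were lower on HFD, and the list of 15 summed to 71840, 76610, 40970 and 42530 CPM. After thinning, 44.0%, 47.6%, 18.8% and 13.4% of the members held a UMI of the macrophage marker Adgre1. Of the dendritic cell genes, Flt3 and Zbtb46, which define the lineage, were near 0, at 4.6 to 6.9 CPM and 0 to 9.2 CPM. The whole dendritic list of 23 genes summed to 7230, 7283, 6314 and 5140 CPM in the members and to 7755, 7956, 6716 and 5446 CPM in C1q-high cells. Most of this sum came from Cst3, with 3431, 3630, 4373 and 3390 CPM, and Cd83, with 3209, 2813, 1018 and 937 CPM, and Mgl2 had 291, 372, 64.3 and 100 CPM. Macrophages express these 3 genes too, and the part of dendritic cells in them was not tested. The T cell gene Cd3e lay between 0 and 2.3 CPM and the epithelial gene Epcam between 0 and 6.9 CPM. The members thus carried Ccr2 and macrophage genes together with MHC class II, and the dendritic list was not low as a whole.

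Some features of the libraries bear on the values. The mice gave 3832283, 7947893, 3824228 and 5584175 UMIs over all cells, and the members 337222, 430563, 435212 and 679703 UMIs. A member had at most 11510 UMIs. The libraries shared 23 cell barcodes, which touched 46 cells and 9 members, and no 2 members shared one. A doublet caller marked 38 of the 5420 cells and none of the members. Among the 651 members, 1 cell of chow mouse 9 and 1 cell of chow mouse 11 were filled with immunoglobulin message, and results that rest on them are given with and without them.

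**Figure D1:**
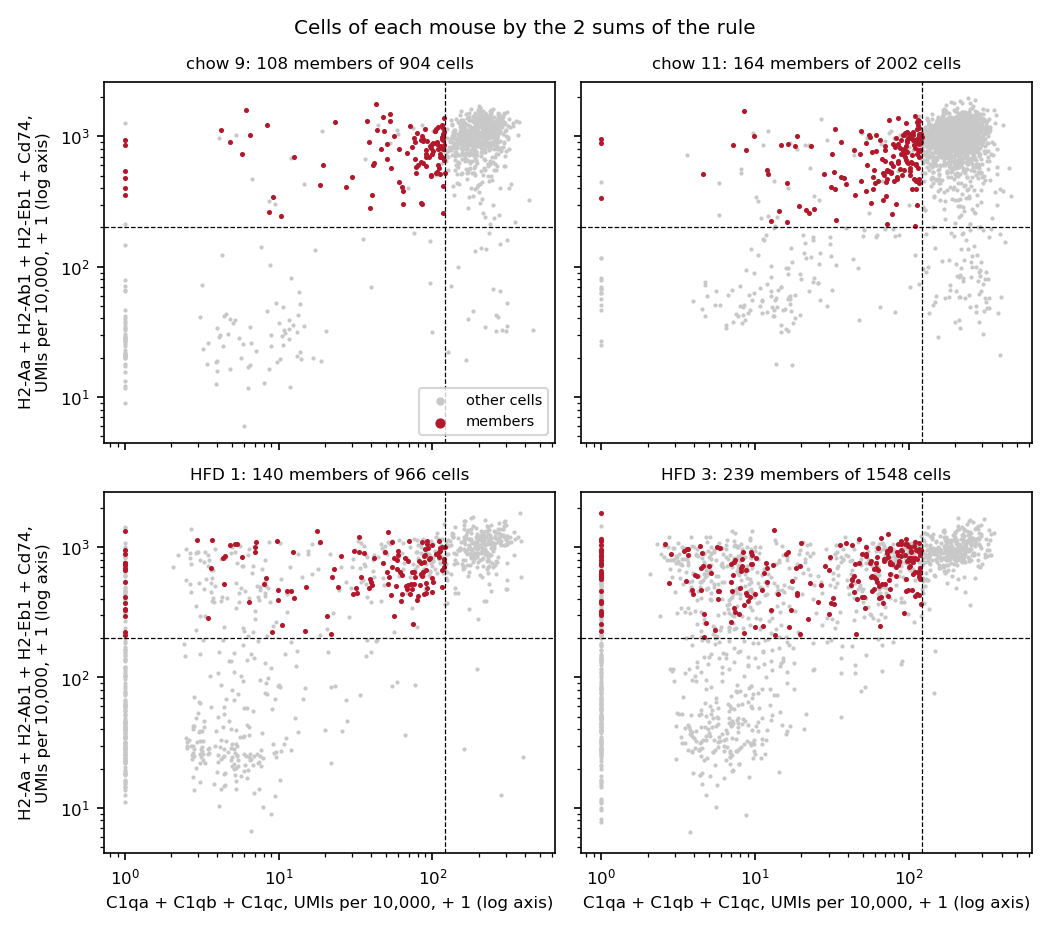
Each point is 1 cell, in 1 panel per mouse, with C (C1q genes per 10000 UMIs, plus 1, log axis) across and M (MHC class II genes per 10000 UMIs, plus 1, log axis) up, and dashed lines at the 2 limits. Red points are the 651 members and grey points all other cells, and more of the members lie at a low C in the HFD mice (45.7% and 52.3% under 40) than in the chow mice (23.1% and 20.7%).

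Position on C differed between the diets within the members. The median C was 83.3 and 82.9 in the chow mice and 50.9 and 29.8 in the HFD mice, while the median M was 800, 727, 656 and 687. Members with a C under 40 made up 23.1% and 20.7% of members on chow (25 of 108 and 34 of 164 cells) and 45.7% and 52.3% on HFD (64 of 140 and 125 of 239 cells). Members with a C of 80 or more made up 50.9% and 53.0% on chow (55 and 87 cells) and 27.9% and 23.4% on HFD (39 and 56 cells). Members of the HFD mice therefore lay lower on C than those of the chow mice, and counts of genes per list below are also given for 90 members per mouse matched on C.

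The cut at 120 ran through a continuous range of C. Just inside it, the 127 members with a C of 100 to 120 had 47050, 48990, 13160 and 6344 CPM of Apoe, the apolipoprotein that macrophages secrete. Just outside it, the 179 cells with a C of 120 to 140 that met the other conditions had 56510, 49260, 19700 and 14560 CPM. At the other cut, 22 members had an M of 200 to 250, and 28 cells with an M of 150 to 200 met the other conditions.

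Members made up 11.9% of all cells of chow mouse 9 (108 of 904, 95% exact binomial interval 9.9 to 14.2), 8.19% of chow mouse 11 (164 of 2002, 7.03 to 9.48), 14.5% of HFD mouse 1 (140 of 966, 12.3 to 16.9) and 15.4% of HFD mouse 3 (239 of 1548, 13.7 to 17.3). The HFD mice both exceeded the chow mice. The mean was 10.1% ± 2.66 (SD, n = 2) on chow and 14.97% ± 0.669 (SD, n = 2) on HFD, a difference of 4.90 percentage points with a two-sided exact permutation p of 0.33, the smallest possible. Without chow mouse 11 the difference was 3.02 points. Intervals cover counting error only, and the cells of 1 mouse share its dissociation and its sort.

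The shares of C1q-high cells and of cells with Ly6c2 UMIs differed by more. C1q-high cells were 65.2% and 71.8% of all cells on chow and 18.6% and 11.8% on HFD, and cells with Ly6c2 UMIs that met the other conditions, called Ly6c2-positive cells here, were 0.442%, 1.40%, 10.7% and 24.4%. Among cells with 0 Ly6c2 UMIs and an M of at least 200, the members' share was 14.6% and 9.63% on chow and 32.0% and 43.1% on HFD. The size of the difference thus turned on what the members were counted against, at 25.4 percentage points over this smaller population and 4.90 over all cells. Without the condition on AA467197 the difference over all cells was 9.39 points, and after thinning to 1500 UMIs it was 11.9 points over the 844, 1802, 842 and 1347 cells that remained once 60, 200, 124 and 201 shallower cells were left out.

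**Figure D2:**
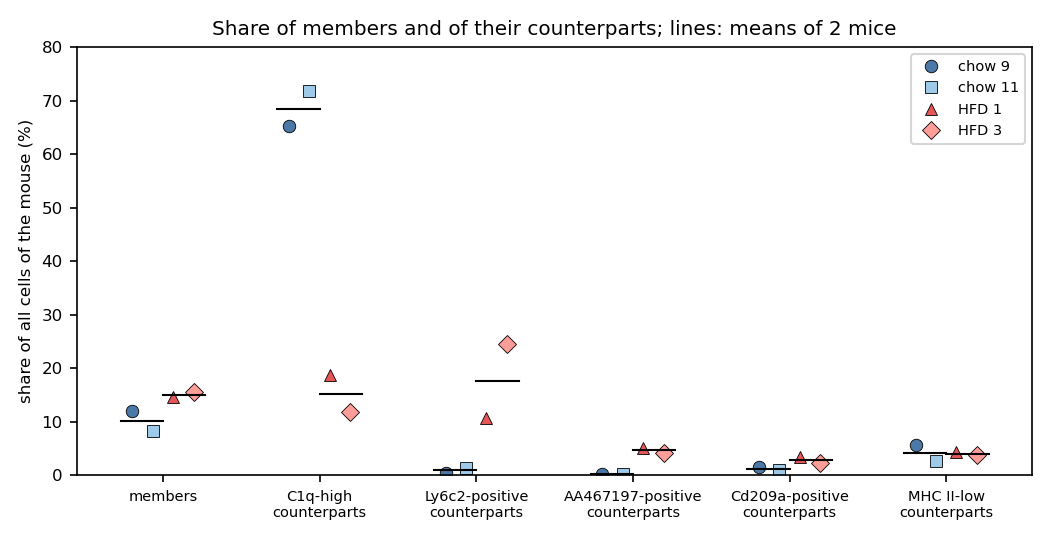
Share of each class among all cells, in percent, with 1 point per mouse and a short line at the mean of the 2 mice of a diet. Members lie between 8.19% and 15.4% in the 4 mice, while C1q-high cells fall from above 65% on chow to below 19% on HFD.

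Compared with all other cells, the members' levels differed most for the following genes, which are a description since the members were chosen on the same counts. Of genes with at least 50 CPM in the members of every mouse, Lpl, the lipase that frees fatty acids from lipoproteins, had the largest ratio of mean levels, with 300, 118, 82.7 and 55.9 CPM against 79.8, 27.9, 38.7 and 98.7 CPM in the other cells. It was higher in the members of 3 of the 4 mice and not in HFD mouse 3. Traf1, an adaptor of TNF receptors induced by NF-kB, had 181, 256, 349 and 284 CPM in the members and 99.0, 94.1, 212 and 222 CPM elsewhere, and was higher in every mouse. Ahr, the receptor for aryl hydrocarbons, had 113, 102, 101 and 70.6 CPM against 49.8, 61.1, 49.9 and 49.3 CPM. Bcl2l11, a promoter of apoptosis, had 107, 76.6, 101 and 63.3 CPM against 41.8, 40.3, 58.7 and 57.9 CPM. The other 11 of the 15 largest ratios were CT010467.1, Spp1, Anp32b, Mxi1, Map4k4, Marcksl1, Itprid2, Smndc1, Gm34084, Rapgef2 and Tm6sf1, with ratios of 1.71 to 2.10. Against the Ly6c2-positive cells alone, only 5 of the 15 (CT010467.1, Anp32b, Itprid2, Ahr and Smndc1) were higher in the members of all 4 mice, although the chow mice held few such cells, and 8 were in both HFD mice. Traf1 had 863, 547, 287 and 337 CPM there, Lpl 454, 0, 61.1 and 111 CPM and Bcl2l11 0, 56.9, 113 and 65.1 CPM, so none of these 3 was set apart from that class. A single cell of chow mouse 9 held 73 of the 120 Spp1 UMIs and 1 cell held 80 of the 126 UMIs of CT010467.1 there.

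The 8 smallest ratios held in all 4 mice. Chil3, a chitinase-like protein made by Ly6C-high monocytes, had 74.1, 221, 538 and 934 CPM in the members and 547, 414, 3960 and 3185 CPM in the other cells. Ccl8, a monocyte-attracting chemokine made by mature gut macrophages, had 41.5, 60.4, 18.4 and 128 CPM against 82.7, 147, 119 and 465 CPM. Mgst1, Ifitm6, H2-M2, Slpi, Zmynd15 and Tmem86a were the others, with ratios of 0.191 to 0.491. Chil3, Mgst1 and Ifitm6 are on the list of monocyte genes used below. Ccl8, H2-M2, Zmynd15 and Tmem86a were lower in the members than in the C1q-high cells of every mouse.

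In the HFD mice, where both neighbours were numerous, the members could be placed between the 103 and 378 Ly6c2-positive cells and the 180 and 183 C1q-high cells of HFD mice 1 and 3. Of 22 monocyte genes tested, 16 had a level in the members between those of both neighbours in both HFD mice, and of 18 genes of resident macrophages 15 did. Of 15 macrophage markers only 3 did, while 4 lay below both neighbours in both HFD mice. Of 10 other genes of MHC class II presentation 0 lay between and 2 below. Over all 4328 genes tested outside the rule 18.6% lay between and 6.05% below. These counts carry no test because C and Ly6c2 set the classes. Other groups held genes that stood above both neighbours. Of 66 cytosolic ribosomal protein genes 31, and of 9 genes encoded in mitochondrial DNA 8, had a higher level in the members than in both neighbours of both HFD mice, against 18.9% of all genes tested. Of 82 nuclear genes of the respiratory chain 29 did (35.4%). Median depths in HFD mice 1 and 3 were 2392 and 2459 UMIs in the members. They were 4059 and 3284 in Ly6c2-positive cells and 3578 and 4327 in C1q-high cells. The part of depth in these counts was not tested.

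The members were uneven within the range of C. Plac8, a small protein abundant in monocytes, had 668 and 1776 CPM in chow members with a C under 40 and 135 and 224 CPM in those with a C of 80 to 120. In HFD members it had 4473 and 6729 CPM under 40 and 1653 and 1197 CPM from 80 to 120. Plac8 was higher at the low end of C in each mouse, and at either end it was higher in the HFD mice than in the chow mice. Ms4a7, a membrane protein of mature macrophages, ran the other way, with 886, 824, 122 and 161 CPM under 40 and 1918, 1807, 398 and 540 CPM from 80 to 120. Ccr2 had 988, 862, 608 and 914 CPM under 40 and 529, 563, 730 and 418 CPM from 80 to 120, so it was higher at the low end in 3 of 4 mice and lower there in HFD mouse 1. Cxcl9, a chemokine induced by interferon-gamma, had 867 and 760 CPM under 40 and 930 and 911 CPM from 80 to 120 on HFD, and 0 to 72.7 CPM in every range on chow. Cxcl9 therefore followed the diet and showed no common order along C.

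**Figure D3:**
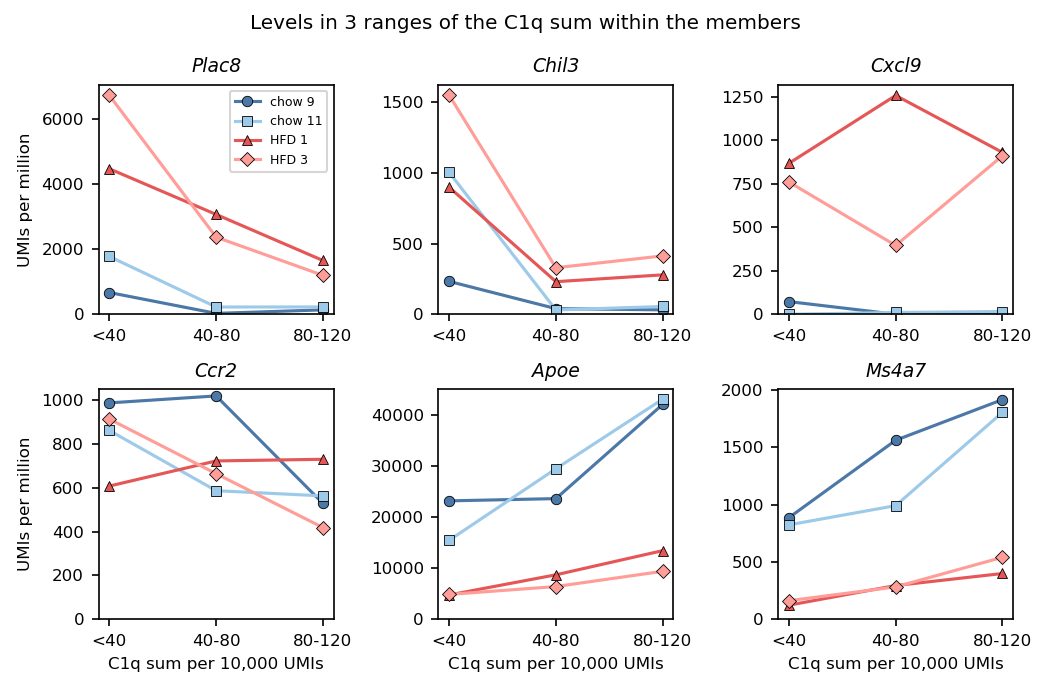
Summed CPM of members in 3 ranges of C (under 40, 40 to 80, 80 to 120, all per 10000 UMIs), with 1 line per mouse and a linear axis from 0, for Plac8, Chil3, Cxcl9, Ccr2, Apoe and Ms4a7. In each mouse Plac8 is higher under 40 than from 80 to 120 and Ms4a7 is lower, and Cxcl9 separates the HFD mice from the chow mice in each range.

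To ask what 1 week of HFD changed inside the members, their UMIs were summed per mouse and compared with edgeR's quasi-likelihood test. Of 4336 genes tested, 229 passed a false discovery rate of 1% (5.28%), 94 of them higher on HFD (2.17%) and 135 lower (3.11%). Leaving out the 3 rule genes among them (C1qa, C1qc and AA467197) left 93 higher and 133 lower. Among the genes that rose were members of the lists of interferon-induced, MHC class I, monocyte and respiratory chain genes, and among those that fell were members of the lists of chemokine, immediate-early and resident macrophage genes, each with its count below. Fold changes are relative to TMM scaling, under which the median log2 fold change over all genes tested was −0.03. Plain CPM put that median at 0.15.

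The number of genes called changed when single mice were left out. The mouse that then stands alone for its diet is assumed to vary like the 2 of the other diet, from which the spread is taken, here and in the comparisons of cell classes. The number was 108 without HFD mouse 1, 79 without HFD mouse 3, 346 without chow mouse 11 and 393 without chow mouse 9, and edgeR's likelihood-ratio test called 381. With 90 members per mouse matched on C, 164 genes were called, 70 higher and 94 lower, of which 149 were shared with the 229. With only members of a C under 60, 130 genes were called. The shares of 2.17% higher and 3.11% lower belong to the full set of members and not to these smaller sets. Counts per list below that are matched on C or have a C under 60 stand without such a share.

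Interferon signals reach induced genes through transcription factors, with interferon-gamma acting through GAS elements and type I interferon acting mainly through ISRE elements. Of 20 genes tested from a list induced by interferon-gamma, 8 rose and none passed in the other direction (edgeR, none lower at an unadjusted p under 0.05 or by the likelihood-ratio test), with a median log2 fold change of 1.195. Of 31 genes tested from a list typical of type I interferon, 6 rose and none passed in the other direction (edgeR, 1 lower at an unadjusted p under 0.05 and 1 lower by the likelihood-ratio test), with a median of 0.56. Both counts stood close when the members were matched on C, at 8 and 5. Each interferon-induced gene that passed the quasi-likelihood test was higher on HFD.

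Cxcl9, the ligand that draws CXCR3-bearing T cells (chr5:92321347-92328079), had 17.8 and 11.6 CPM on chow against 974 and 712 CPM on HFD. Its log2 fold change of 5.67 (SE 0.33, edgeR adjusted p = 3.99e-07) was the largest among genes with UMIs on both diets. After thinning to 1500 UMIs, a Cxcl9 UMI was found in 1.10% and 0.952% of the 91 and 105 chow members that remained (95% exact intervals from 0.0241 to 5.97) and in 33.3% (24.0 to 43.7) and 37.99% (30.9 to 45.5) of the 96 and 179 HFD members that remained, while 1.40%, 1.86%, 19.9% and 37.95% of C1q-high cells held one. Unthinned shares in the members were 2.78%, 2.44%, 37.1% and 47.7%. Members with and without a captured Cxcl9 UMI thus occurred side by side in each HFD mouse. The part of background RNA in the droplets was not measured, so these shares are not shares of cells that express the gene.

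Gbp2, a guanylate-binding protein of cell-autonomous defence, had 47.4 and 48.8 CPM on chow against 664 and 818 CPM on HFD, a log2 fold change of 3.76 (SE 0.24, edgeR adjusted p = 1.23e-06). Serpina3g, a protease inhibitor of activated immune cells, had 0 and 11.6 CPM on chow against 152 and 138 CPM on HFD, a log2 fold change of 4.25 (SE 0.56, edgeR adjusted p = 3.00e-04). Ifi205, an interferon-inducible gene of the HIN-200 family, had 5.93 and 6.97 CPM on chow against 140.2 and 127 CPM on HFD, a log2 fold change of 4.12 (SE 0.45, edgeR adjusted p = 8.02e-05). Gbp2, Serpina3g and Ifi205 were taken from genes called whose HFD mice both lay above both chow mice, so this separation is no result. Over all genes tested, 34.8% were so placed by plain CPM and 25.9% with TMM scaling. Isg15, a ubiquitin-like protein, rose by 2.60 on the log2 scale, Irf7, the regulator of type I interferon, by 1.90, Zbp1, a sensor of Z-form nucleic acid, by 2.59, and Ifitm1, a restriction factor of viral entry, by 3.22. In the chow mice 1 cell each held most of the Ifitm1 UMIs, 20 of 25 and 8 of 10.

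The promoters of genes that rose were read for the letters of the 2 elements. GAS was searched as TTCNNNGAA and an ISRE-like element as GAAANNGAAA, on both strands, in the 250 bases before each start in the RefSeq table of GRCm38.p6. Of all 32851 windows 7.02% held the first and 2.98% the second. Counted by gene, 7.20% and 4.04% of the 3444 genes tested that had a window held them in any of their windows. Of 93 genes that rose 75 had a window, and 9 of these held GAS letters (12%) and 7 held ISRE-like letters (9.33%). Of 133 that fell 100 had one, and 8 (8%) and 5 (5%) held them. These shares are a description, and a match of letters is not a site of binding. The 150 bases before the start are shown 5′ to 3′ on the strand of the gene for 4 interferon-induced genes that rose, because their windows hold such letters, which stand in capitals. In Isg15 the capitals are 3 overlapping ISRE-like matches, and in Gbp2 they are the complementary strand's letters. The windows are chr3:142620513-142620662 on the plus strand for Gbp2, chr4:156200819-156200968 on the minus strand for Isg15, chr1:174031756-174031905 on the minus strand for Ifi205 and chr12:104235997-104236146 on the plus strand for Serpina3g.
Gbp2: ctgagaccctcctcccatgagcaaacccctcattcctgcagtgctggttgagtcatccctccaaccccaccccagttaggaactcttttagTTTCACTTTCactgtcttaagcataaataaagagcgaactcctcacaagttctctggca
Isg15: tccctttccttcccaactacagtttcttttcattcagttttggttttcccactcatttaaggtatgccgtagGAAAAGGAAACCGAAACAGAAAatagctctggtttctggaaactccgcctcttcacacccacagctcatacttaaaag
Ifi205: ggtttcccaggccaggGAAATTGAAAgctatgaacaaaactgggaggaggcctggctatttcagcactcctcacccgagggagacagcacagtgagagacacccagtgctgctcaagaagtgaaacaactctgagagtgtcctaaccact
Serpina3g: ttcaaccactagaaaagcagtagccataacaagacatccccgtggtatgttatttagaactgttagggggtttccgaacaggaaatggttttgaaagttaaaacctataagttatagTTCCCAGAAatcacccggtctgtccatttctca
The Isg15 run covers bases 78 to 57 before the start, the Gbp2 match 59 to 50, the Ifi205 match 134 to 125 and the GAS match of Serpina3g 33 to 25.

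**Figure D4:**
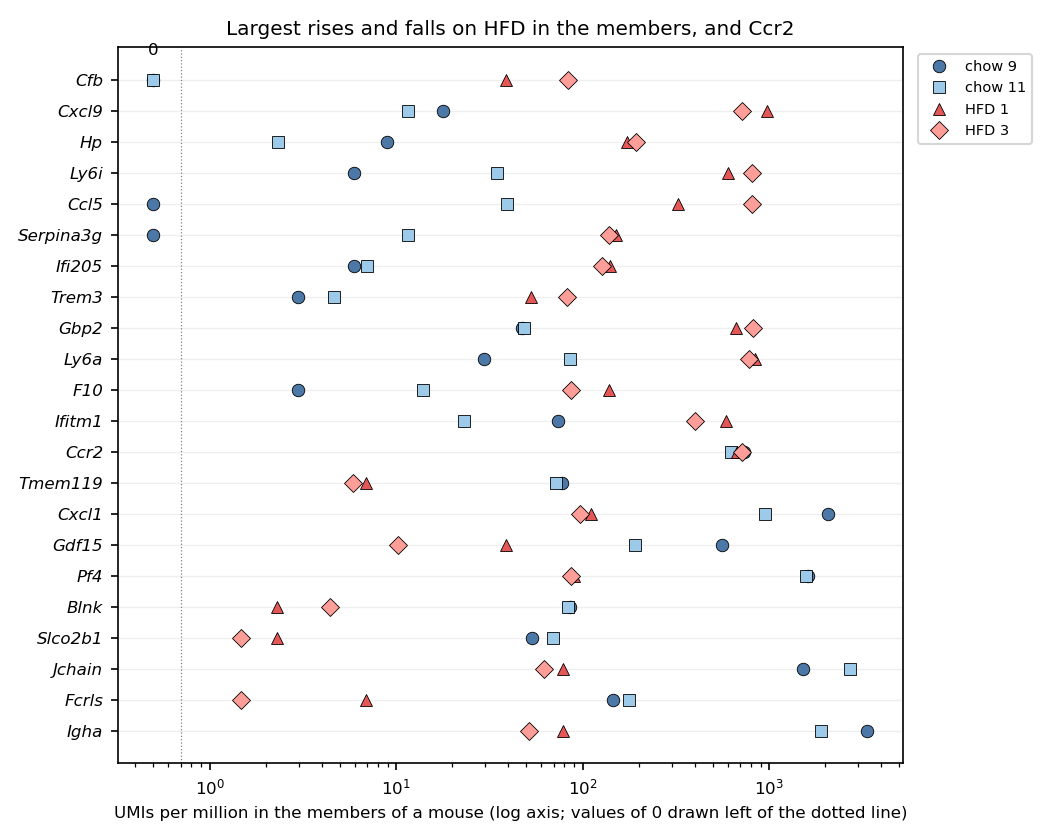
CPM of the members in each mouse for the 12 largest rises, Ccr2 and 9 of the 10 largest falls on HFD, 1 line per gene, on a log axis with values of 0 drawn left of the dotted line, chow mice in blue and HFD mice in red. Apart from Ccr2, whose 4 values overlap at 622 to 732 CPM, each gene has both HFD mice on the same side of both chow mice.

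Presentation on MHC class I, which shows peptides of the cell's own proteins to CD8 T cells, rose in part. Of 19 genes tested, 7 rose and no other passed the test, with a median log2 fold change of 1.06, and matched on C 8 rose. Tap1, the peptide transporter of the endoplasmic reticulum, had 38.5 and 72 CPM on chow against 299 and 322 CPM on HFD, a log2 fold change of 2.27 (SE 0.29, edgeR adjusted p = 2.32e-04). Psme2, a subunit of the proteasome activator PA28, had 199 and 188 CPM on chow against 892 and 983 CPM on HFD, a log2 fold change of 2.10 (SE 0.19, edgeR adjusted p = 1.55e-05). The immunoproteasome subunits Psmb10, Psmb8 and Psmb9 rose by 2.38, 1.71 and 1.32 on the log2 scale. With the constitutive subunits they formed a list of 37 proteasome genes tested, of which 5 rose, Psmb2 among them with 1.07, at a median of 0.45, and matched on C 5 rose. MHC class I genes may share reads with near-identical copies, so the changes of single H2 genes are not given.

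Class II presentation outside the 4 rule genes moved in both directions. Of 10 genes tested, 1 rose and 2 fell, with a median of −0.01, and matched on C 1 rose and 1 fell. The riser was Ifi30, a thiol reductase of the endosome induced by interferon-gamma, with 418 and 655 CPM on chow against 1834 and 1607 CPM on HFD and a log2 fold change of 1.49 (SE 0.21, edgeR adjusted p = 4.88e-04). Those that fell were Cd83, which stabilises MHC class II at the surface, from 3209 and 2813 CPM to 1018 and 937 CPM, and Lgmn, an endosomal protease, by 0.90 on the log2 scale. H2-Ab1, a gene of the rule, stood at 23790, 22800, 24880 and 23310 CPM.

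Monocyte genes rose more often than they fell. Of 22 tested, 8 rose and 2 fell, with a median of 0.94, and matched on C 6 rose and 1 fell. Plac8 had 219 and 504 CPM on chow against 3189 and 4121 CPM on HFD, a log2 fold change of 3.14 (SE 0.29, edgeR adjusted p = 1.78e-05). The share with a Plac8 UMI, over the members that remained after thinning, was 16.5%, 20%, 82.3% and 82.7%, and in C1q-high cells 6.63%, 7.88%, 50.6% and 58.4%. Hp, haptoglobin, which binds free haemoglobin, had 8.9 and 2.32 CPM on chow against 172 and 194 CPM on HFD, a log2 fold change of 4.89 (SE 0.47, edgeR adjusted p = 2.54e-05).

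Ly6a, also known as Sca-1, had 29.7 and 85.9 CPM on chow against 836 and 778 CPM on HFD, a log2 fold change of 3.56 (SE 0.31, edgeR adjusted p = 1.32e-05). Its relative Ly6i had 5.93 and 34.8 CPM on chow against 599.7 and 811 CPM on HFD, a log2 fold change of 4.82 (SE 0.39, edgeR adjusted p = 7.16e-06). Both lie in a family of near-identical genes whose reads the counting could have split, which leaves their separate levels uncertain. The 2 monocyte genes that fell were Fn1, fibronectin, which did not pass matched on C (edgeR adjusted p = 0.0157), and Lyz1, a lysozyme. Ccr2 did not pass the test, with a log2 fold change of −0.14 (SE 0.18, edgeR adjusted p = 0.698). The sum of the whole monocyte list was 6731, 6289, 15200 and 16290 CPM in the members and 2511, 2790, 6289 and 7246 CPM in C1q-high cells. Whether monocytes with no captured Ly6c2 UMI had a part in these rises was not tested beyond the depth and the values at matched C.

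Of the genes that the study's text names for this experiment, which were chosen on these same samples and are no independent evidence, 9 of 11 rose. Gbp5 had 5.93 and 6.97 CPM on chow against 20.7 and 39.7 CPM on HFD with a log2 fold change of 2.05 and an edgeR adjusted p of 0.0587. Ccl8 had 41.5 and 60.4 CPM on chow against 18.4 and 128 CPM on HFD with 0.41 and an adjusted p of 0.745, and its sign turned to −1.64 without HFD mouse 3. Ccl5, a chemokine for T cells and monocytes, was among the 9, with 0 and 39.5 CPM on chow against 324 and 809 CPM on HFD and a log2 fold change of 4.52 (SE 0.62, edgeR adjusted p = 3.90e-04).

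Further large rises lay outside these lists. Cfb, complement factor B, had 0 UMIs in the members of both chow mice and 17 and 57 UMIs, or 39.1 and 83.9 CPM, on HFD. Against a floor of 3 counts over the chow group it was at least 17.0-fold higher. F10, coagulation factor X, had 2.97 and 13.9 CPM on chow against 138 and 86.8 CPM on HFD, a log2 fold change of 3.40 (SE 0.54, edgeR adjusted p = 0.00125). Trem3, an activating receptor of myeloid cells, had 2.97 and 4.65 CPM on chow against 52.8 and 82.4 CPM on HFD, a log2 fold change of 3.88 (SE 0.61, edgeR adjusted p = 0.0012). These 3 genes had at most 60 UMIs per mouse in the members, which limits the precision of their fold changes.

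Among genes of effector metabolism and antimicrobial defence, 5 of 12 rose and 1 fell, with a median of 0.92, and matched on C 5 of 13 rose and 1 fell. Ass1, which makes argininosuccinate from citrulline, had 50.4 and 44.1 CPM on chow against 262 and 294 CPM on HFD, a log2 fold change of 2.38 (SE 0.27, edgeR adjusted p = 8.97e-05). AW112010, a transcript induced by interferon and microbial products, had 338 and 420.4 CPM on chow against 1698 and 1869 CPM on HFD, a log2 fold change of 2.05 (SE 0.18, edgeR adjusted p = 1.35e-05). Calhm6, a channel protein of activated macrophages, rose by 2.81 on the log2 scale. The faller was Ptgs1, the constitutive cyclooxygenase, at −2.36.

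Nuclear genes of the respiratory chain rose in part. Of 82 nuclear genes tested that encode respiratory chain or ATP synthase subunits, 19 rose and no other passed, and 62 were higher at an unadjusted p under 0.05 with none lower, at a median of 0.79. Cox5b, a subunit of cytochrome c oxidase, had 154 and 107 CPM on chow against 429.7 and 353 CPM on HFD, a log2 fold change of 1.41 (SE 0.24, edgeR adjusted p = 0.00245). Cycs, cytochrome c, had 80.1 and 107 CPM on chow against 246 and 306 CPM on HFD, a log2 fold change of 1.37 (SE 0.25, edgeR adjusted p = 0.00359). Atp5l and Ndufa3, subunits of ATP synthase and complex I, rose by 1.45 and 1.38 on the log2 scale. Matched on C, 14 of 84 rose, Atp5l and Ndufa3 no longer among them at 1.35 and 1.36 (edgeR adjusted p = 0.0131 and 0.0166), and with a C under 60, 6 rose.

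The 9 tested subunits encoded in mitochondrial DNA did not rise with them. None passed edgeR's test (3 lower and none higher at an unadjusted p under 0.05, none by the likelihood-ratio test or DESeq2), and their median was −0.42. The 57 mitochondrial ribosomal protein genes had a median of 0.37 with none called by any of the 3 (10 higher at an unadjusted p under 0.05). The 66 cytosolic ribosomal protein genes had a median of 0.03 with none called (3 higher and 2 lower at an unadjusted p under 0.05, 1 higher by the likelihood-ratio test). The authors kept only cells with a mitochondrial share within set limits, so cells with other shares are not among these.

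In glycolysis, 3 of 14 genes rose, with a median of 0.94. The count was 8 by the likelihood-ratio test, 9 of 15 without the condition on AA467197, 2 matched on C and 1 of 15 with a C under 60, while the median stayed between 0.90 and 1.36. Ldha, lactate dehydrogenase, had 341 and 309 CPM on chow against 717 and 881 CPM on HFD, a log2 fold change of 1.12 (SE 0.19, edgeR adjusted p = 0.00208). Pgk1 and Aldoa, enzymes of the pathway's later and earlier steps, rose by 1.24 and 0.99 on the log2 scale, and Pgk1 did not pass matched on C (1.06, edgeR adjusted p = 0.0317). These rises were smaller than those of the interferon-induced genes named above.

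Chemokine genes split into both directions. Of 13 tested, Cxcl9 and Ccl5 rose and 7 fell, with a median of −1.61, and matched on C 3 rose and 7 fell. Pf4, the platelet factor that mature tissue macrophages also express, had 1616 and 1570 CPM on chow against 89.6 and 86.8 CPM on HFD, a log2 fold change of −4.35 (SE 0.20, edgeR adjusted p = 7.74e-08). Cxcl1, a neutrophil attractant, had 2073 and 948 CPM on chow against 110.3 and 97.1 CPM on HFD, a log2 fold change of −4.05 (SE 0.34, edgeR adjusted p = 8.51e-06). Ccl3, an inflammatory chemokine, had 4066 and 2736 CPM on chow against 425 and 462 CPM on HFD, a log2 fold change of −3.12 (SE 0.21, edgeR adjusted p = 1.64e-06).

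Ccl7, Ccl4, Cxcl2 and Ccl9 fell by 2.96, 2.46, 2.03 and 1.61 on the log2 scale. With a C under 60 Ccl4 stood at −0.68 and did not pass (edgeR adjusted p = 0.106). Of the 13 chemokine genes 6 fell there, and the list's median was −0.68. In each of the 7 that fell, the 2 HFD mice were below the 2 chow mice, and the diets lay apart in all 229 genes called. Over all genes tested, 18.7% were lower in this way by plain CPM and 26.5% with TMM scaling. Among 7 chemokine receptor genes 1 rose and 1 fell. Ccr7, which guides cells to lymph nodes, had 26.7 and 39.5 CPM on chow against 168 and 112 CPM on HFD, a log2 fold change of 1.85 (SE 0.36, edgeR adjusted p = 0.00547), with UMIs in 5 and 4 chow members only. The Ccr7 call was lost matched on C (1.56, edgeR adjusted p = 0.0342), with a C under 60 (0.92, 0.332), after thinning (1.44, 0.0407) and without either HFD mouse. The faller was Cx3cr1, the fractalkine receptor of mature gut macrophages, with 264 and 497 CPM on chow against 66.6 and 63.3 CPM on HFD and a log2 fold change of −2.74 (SE 0.31, edgeR adjusted p = 8.72e-05).

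Cytokine and cytokine receptor genes held 2 that fell among 21, with a median of −0.51, and matched on C 2 fell. Tnf had 237 and 309 CPM on chow against 89.6 and 91.2 CPM on HFD, a log2 fold change of −1.78 (SE 0.24, edgeR adjusted p = 3.90e-04). With a C under 60 Tnf stood at −0.69 and did not pass (edgeR adjusted p = 0.518). Tgfbr1, a receptor chain for TGF-beta, fell by 1.46 on the log2 scale, but not past the threshold matched on C (−1.16, edgeR adjusted p = 0.0253). Of 21 NF-kB targets 4 fell, among them Nfkbiz by 1.34 and Tnfaip3 by 1.10, and Sod2, the mitochondrial superoxide dismutase, rose by 0.88. Matched on C 3 of the 21 fell and none passed upward (edgeR, 3 higher at an unadjusted p under 0.05), with Tnfaip3 at −0.93 (edgeR adjusted p = 0.0232) and Sod2 at 0.86 (0.016). With a C under 60 Sod2 was at 0.33 (0.641). Of 17 costimulation and adhesion genes 1 rose, Slamf8, by 1.58, and matched on C 1 of 18 rose and 1 fell.

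Immediate-early genes respond within minutes to stimulation and also to tissue dissociation. Of 23 tested, 12 fell and none passed upward (edgeR, none higher at an unadjusted p under 0.05 or by the other tests), with a median of −1.08, and 12 fell with the members matched on C. With a C under 60, 8 of the 23 fell, at a median of −0.81. Jun, a subunit of the AP-1 factor, had 1545 and 871 CPM on chow against 199.9 and 207 CPM on HFD, a log2 fold change of −2.74 (SE 0.26, edgeR adjusted p = 2.16e-05). Atf3, a stress-induced transcription factor, had 1518 and 1696 CPM on chow against 381 and 444 CPM on HFD, a log2 fold change of −2.14 (SE 0.17, edgeR adjusted p = 8.04e-06). Egr1 and Klf2 fell by 2.30 and 2.06 on the log2 scale. Of 14 heat-shock genes 2 fell, Hspa1a by 1.38 and Hspa5 by 0.82, and matched on C 1 of 12 fell, with Hspa5 at −0.52 (edgeR adjusted p = 0.13). With a C under 60 none of 13 passed edgeR's test. Hspa1a stood at −0.43 there and Hspa5 at −0.39 (edgeR adjusted p = 0.502 and 0.48). Time and handling of the dissociations were not in the labels, and their part in these falls was not tested.

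Genes of mature and resident macrophages were also among those that fell. Of 18 resident macrophage genes 7 fell and none passed upward (edgeR, 1 higher at an unadjusted p under 0.05 and 1 higher by the likelihood-ratio test and DESeq2), with a median of −1.23, and matched on C 6 fell. Mrc1, the mannose receptor CD206, had 267 and 321 CPM on chow against 48.3 and 38.3 CPM on HFD, a log2 fold change of −2.96 (SE 0.27, edgeR adjusted p = 1.55e-05). Hpgds and Hpgd, which make prostaglandin D2 and degrade prostaglandins, fell by 2.64 and 2.61 on the log2 scale. The summed level of this list was 7161, 8710, 3626 and 4161 CPM in the members and 13620, 13080, 9414 and 9767 CPM in the C1q-high cells.

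Of 15 macrophage markers 6 fell and 1, Aif1, rose, with a median of −0.69, and matched on C 5 fell and 1 rose. Apoe had 34070 and 34968 CPM on chow against 8596 and 6468 CPM on HFD, a log2 fold change of −2.38 (SE 0.17, edgeR adjusted p = 1.85e-06). Ms4a7 had 1628 and 1442 CPM on chow against 255 and 296 CPM on HFD, a log2 fold change of −2.65 (SE 0.18, edgeR adjusted p = 1.81e-06). Adgre1, the F4/80 antigen, had 519 and 518 CPM on chow against 165 and 127 CPM on HFD, a log2 fold change of −2.02 (SE 0.21, edgeR adjusted p = 6.15e-05). All 3 were lower in each HFD mouse than in either chow mouse. Fcrls, an Fc receptor-like scavenger molecule, had 145 and 177 CPM on chow against 6.89 and 1.47 CPM on HFD, a log2 fold change of −5.55 (SE 0.49, edgeR adjusted p = 1.42e-05). Slco2b1, Blnk and Tmem119 fell by 5.09, 4.65 and 3.69 on the log2 scale. Gdf15, a stress-induced cytokine, had 560.5 and 190.4 CPM on chow against 39.1 and 10.3 CPM on HFD, a log2 fold change of −4.22 (SE 0.56, edgeR adjusted p = 3.30e-04).

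Lipid genes moved both ways, with 3 of 21 falling and 1 rising at a median of −0.35, and 4 falling and 1 rising matched on C. Besides Apoe, Cd36, the fatty acid scavenger receptor, had 125 and 85.9 CPM on chow against 13.8 and 22.1 CPM on HFD, a log2 fold change of −2.65 (SE 0.40, edgeR adjusted p = 0.00103). Trem2, a lipid-sensing receptor, had 299.5 and 183 CPM on chow against 57.4 and 45.6 CPM on HFD, a log2 fold change of −2.41 (SE 0.31, edgeR adjusted p = 2.77e-04). Fabp5, which carries fatty acids within the cell, rose, with 56.3 and 44.1 CPM on chow against 246 and 325 CPM on HFD and a log2 fold change of 2.34 (SE 0.28, edgeR adjusted p = 1.71e-04). Of 25 lysosomal genes 3 fell, Cd63, Lgmn and Ctsb, by 1.22, 0.90 and 0.87, at a median of −0.22. Matched on C none of the 25 passed edgeR's test (3 lower and 4 higher at an unadjusted p under 0.05), with Cd63, Lgmn and Ctsb at −0.65, −0.64 and −0.64 (adjusted p = 0.125, 0.0386 and 0.035) and the median at −0.10.

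**Figure D5:**
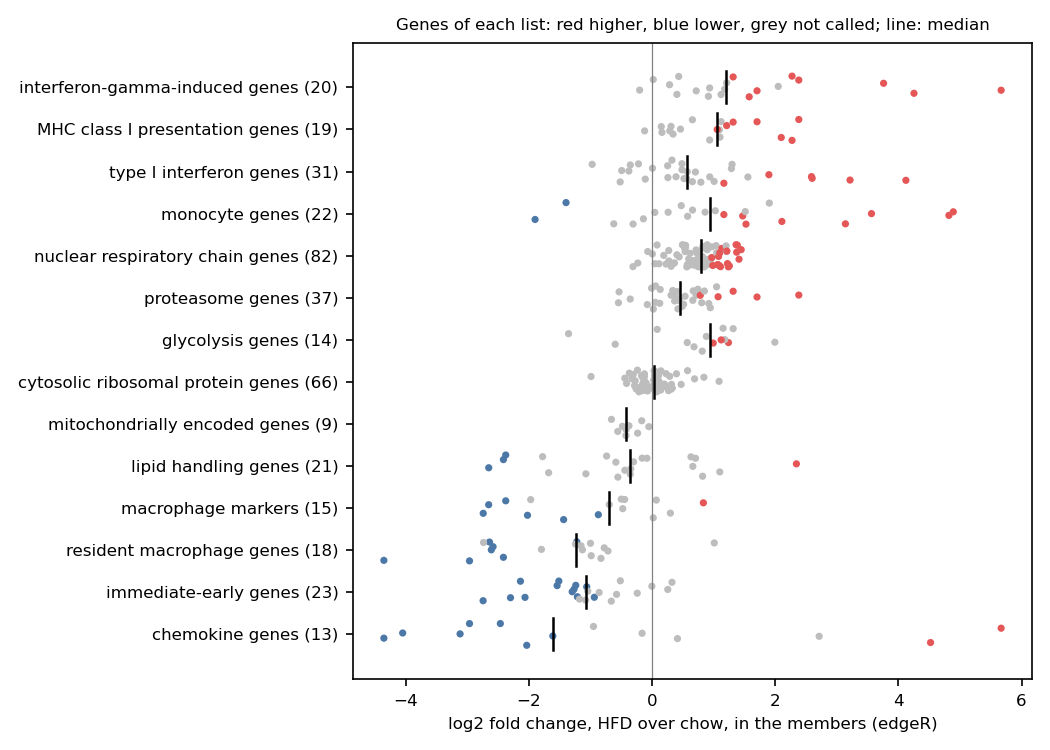
Log2 fold change in the members, HFD over chow, with 1 point per gene tested in 14 of the lists, red where called higher, blue where called lower, grey where not called, and a black line at the list's median (number of genes in parentheses). The medians of the interferon-gamma, class I, glycolysis and monocyte lists lie right of the median of all genes at −0.03, and the chemokine, resident macrophage and immediate-early lists lie left of it.

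Markers of other cell types were counted in the same fit. The dendritic list, whose summed level is given above, had 1 gene up (Ccr7) and 2 down (Cd83 and Mgl2) among 8 tested, and matched on C the 2 alone passed. Of the T and NK, granulocyte and mast cell, and proliferation lists 1 gene each could be tested and none was called (1 T or NK gene lower at an unadjusted p under 0.05). No gene of the epithelial or stromal lists was high enough to test. The summed levels in the members were 43.7 to 85.9 CPM for T and NK genes, 17.8 to 44.1 for epithelial genes, 29.7 to 55.7 for granulocyte and mast cell genes and 26.7 to 69.7 for stromal genes.

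Immunoglobulin genes gave the largest fall, and most of their UMIs on chow lay in 2 cells. Igha, the heavy chain of IgA, had 3359.8 and 1899.8 CPM on chow against 78.1 and 51.5 CPM on HFD, a log2 fold change of −5.56 (SE 0.32, edgeR adjusted p = 3.99e-07), and Jchain, which joins IgA dimers, had 1515 and 2722 CPM on chow against 78.1 and 61.8 CPM on HFD, a log2 fold change of −5.12 (SE 0.30, edgeR adjusted p = 3.99e-07). In chow mouse 9, 1 cell held 1555 of the 1644 UMIs of both genes, and the next member held 5. In chow mouse 11, 1 cell held 1839 of 1990, and the next held 8. The highest members of the HFD mice held 7 and 8. Without the 2 cells Igha had 95.9, 165, 78.1 and 51.5 CPM, with a log2 fold change of −1.23 and an edgeR adjusted p of 0.023 that did not pass, and Jchain had 171, 191, 78.1 and 61.8 CPM, with −1.56 and an adjusted p of 0.00104 that did. Ighm, with 261 and 279 CPM on chow against 124 and 116 CPM on HFD, also fell, by 1.35. Leaving the 2 cells out gave 268 genes called in all, 228 of them among the 229.

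The diet effect in the members was then set against that in the C1q-high cells of the same mice, by edgeR with a term for each mouse and a term for the difference. Of 5197 genes tested, 57 passed (1.1%), 3 with a more positive effect in the members (0.0577%) and 54 with a more negative one (1.04%). Those more negative include C1qa, C1qb and C1qc, which the rule used, and without them 54 passed, 3 more positive and 51 more negative. Members of the HFD mice lay lower on C. With 90 members per mouse matched on C, 14 genes passed, all more negative, and 13 of them were among the 57, whereas an equal draw of 108 members per mouse without matching gave 59, 48 of them shared, or 56 and 45 without the C1q genes. The part of the position on C was not tested beyond these values. Without chow mouse 9, chow mouse 11 or HFD mouse 1 the counts were 19, 21 and 32, or 18, 21 and 29 without the C1q genes.

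The 13 genes that passed both ways were Apoe, Ccl3, Ccl7, Ccl8, Clec4b1, Cxcl1, Cxcl2, Egr1, Lpl, Mgl2, Pf4, S100a6 and St3gal6, of which 6 encode chemokines. For Apoe the log2 fold change was −2.38 in the members and −1.02 in the C1q-high cells, a difference of −1.31 on the log2 scale (SE 0.07, edgeR adjusted p = 3.56e-12), and −0.88 matched on C. Ccl8 had 41.5, 60.4, 18.4 and 128 CPM in the members and 97.2, 164, 438 and 1741 CPM in the C1q-high cells, a difference of −2.61 on the log2 scale (SE 0.33, edgeR adjusted p = 9.07e-06). The HFD mice were above the chow mice in C1q-high cells, where the diet effect of 2.96 did not pass at 1% (edgeR adjusted p = 0.0141), and the diets overlapped in the members. Lpl differed by −2.60 on the log2 scale (SE 0.38, edgeR adjusted p = 7.87e-05) and S100a6, a calcium-binding protein of monocytes, by −1.11 on the log2 scale (SE 0.20, edgeR adjusted p = 0.00161).

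Against the Ly6c2-positive cells of the same mice, 9 of 4898 genes passed (0.184%), 1 more positive in the members (0.0204%) and 8 more negative (0.163%). This comparison rests on few cells, since the chow mice held 4 and 28 Ly6c2-positive cells against 103 and 378 on HFD. Without either HFD mouse no gene passed (30 and 56 at an unadjusted p under 0.05, edgeR), and without chow mouse 9 or 11 the counts were 40 and 58, the latter 54 without Cd74, H2-Aa, H2-Ab1 and H2-Eb1 of the rule. Matched on C, 2 genes passed, of which 1, Igha, was among the 9. Plac8 had 219, 504, 3189 and 4121 CPM in the members and 5631, 4520, 8166 and 8136 CPM in the Ly6c2-positive cells, a difference of 2.36 on the log2 scale (SE 0.42, edgeR adjusted p = 2.69e-05), and 1.63 with an adjusted p of 0.0834 matched on C. Cxcl1 and Cxcl2 were among those with a more negative effect in the members, by −2.59 on the log2 scale (SE 0.47, edgeR adjusted p = 5.04e-05) and −2.11 on the log2 scale (SE 0.43, edgeR adjusted p = 8.62e-04).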

How the data were processed

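The labels give 2 chow mice and 2 HFD mice, 1 library each. By their methods and processing notes, the authors counted UMIs per gene and cell with kallisto 0.46.0 and bustools 0.39.2 (mm10), filtered cells on depth and mitochondrial share, removed cells of other types, and deposited raw counts of 11820 genes in 5420 cells. Cells were assigned to mice by the mouse name in each column, and 0 columns were unused.

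The members, gene lists and tests were chosen with earlier results of these data known. Counts of the chosen cells were summed per mouse, genes were kept with at least 1 CPM in 2 of 4 sums and a UMI in 5% of cells, and edgeR 4.0.16 (R 4.3.3, limma 3.58.1) fitted quasi-likelihood models with TMM scaling, calling genes at a false discovery rate of 1% (Benjamini-Hochberg). Differences between cell classes used a term per mouse and a class by diet term. DESeq2 1.42.0 was an alternative. Cells, shares and thinning were computed in Python 3.11.15 with numpy 2.4.6, pandas 2.3.3 and scanpy 1.11.5, whose Scrublet was run per mouse with an expected doublet share of 5%. The code was tested on simulated data.

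Named genes were the 12 largest rises and 10 largest falls among genes called whose mice did not overlap, the genes of the study's text, up to 4 genes called per list, the 4 largest differences each way, the 15 largest and 8 smallest level ratios, and Ccr2, never the 10 rule genes. Other genes were named after their values were seen: genes that filled out a list's count, those that stayed called matched on C, and the genes shown along C. Each mouse is 1 library, so the spread behind the p-values joins mice and libraries. The edgeR test draws much of that spread from all genes together. The prior degrees of freedom were 10.68 for the diet effect in members and 23.7 for the difference from C1q-high cells. For the difference from Ly6c2-positive cells they were infinite, so a gene's own spread had no weight there. Some items are not reported here. Alternatives covered the test, scaling, filters, thresholds of the rule, depth, cell numbers, doublets and each mouse in turn. Matching on C, the immunoglobulin-rich cells (at least 50 UMIs of Igha and Jchain) and equal cell numbers for the differences were chosen after seeing the data.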

Additional observations from a re-analysis of the deposited data

Results flagged for a closer look

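The diet effect of 57 genes differed between the members and the C1q-high cells by edgeR's test of the difference itself, of which C1qa, C1qb and C1qc were genes of the rule, leaving 54. The largest more negative effects in the members were those of Ch25h at −8.69, St3gal6 at −4.46, Igha at −4.34 and Slco2b1 at −4.25 on the log2 scale. Ch25h, which makes 25-hydroxycholesterol, had 29.7 and 20.9 CPM in the members on chow and 0 on HFD, and 29.5, 16.0, 72.5 and 8.61 CPM in the C1q-high cells, and since the members on HFD are at 0 its fitted value is no measure of size. Without the immunoglobulin-rich cells of both classes the Igha difference was −0.24 (edgeR adjusted p = 0.908). With the members matched on C, St3gal6 passed, while Slco2b1 stood at −3.32 (edgeR adjusted p = 0.0937) and Igha at −3.29 (0.457) and did not pass. Ch25h, again at 0 in the members on HFD, did not pass either (0.0467).

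The 3 more positive effects were those of Tspan13 at 1.21, Ms4a6d at 0.93 and Prdx5 at 0.69. Tspan13, a tetraspanin, had 294, 251, 574 and 689 CPM in the members and 494, 404, 342 and 531 CPM in the C1q-high cells. Prdx5, a peroxiredoxin, had 765, 864, 2780 and 3259 CPM against 701, 758, 1484 and 1748 CPM. With the members matched on C the effects stood at 1.13, 0.88 and 0.57, close to those above, and none passed (edgeR adjusted p = 0.0245, 0.0862 and 0.21).

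Against the Ly6c2-positive cells 9 genes differed. The values were −9.22 for Mmp12, −4.41 for Igha, −4.01 for Spp1, −4.00 for Jchain and 2.36 for Plac8. Mmp12, macrophage elastase, was at 0 UMIs in the 32 Ly6c2-positive cells of the chow mice, so its value depends on the prior count and is no measure of size. Without the immunoglobulin-rich cells of both classes Igha stood at −0.43 and Jchain at −0.34, with edgeR adjusted p of 0.994 and 0.996. In chow mouse 9, 1 member held 73 of 120 Spp1 UMIs. The part of single cells in the Spp1 difference was not tested further.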

How the results depend on the processing

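In the members, the numbers of genes called, higher and lower were 229, 94 and 135. They were 381, 172 and 209 with the likelihood-ratio test and 130, 53 and 77 with a C under 60. Totals and higher calls were 407 and 213 without a filter and 412 and 227 with the CPM filter alone, and DESeq2 called 185. Leaving out 1 mouse gave 79 to 393 in total, 28 to 170 higher and 51 to 223 lower, with the low counts without an HFD mouse and the high counts without a chow mouse. For the difference from C1q-high cells, more positive calls were 7 without a filter, 7 without the condition on AA467197 and 5 with equal cell numbers, and matching on C gave 14, 0 and 14 (439 genes at an unadjusted p under 0.05). Leaving out 1 mouse gave 19 to 45 in total, 0 to 3 more positive and 19 to 43 more negative. The C1q genes of the rule are in these counts except where matched on C and without chow replicate 11. For the difference from Ly6c2-positive cells, more positive calls were 2 with the likelihood-ratio test, matching on C gave 2, 0 and 2 (268 at an unadjusted p under 0.05), and leaving out 1 mouse gave 0 to 58, 0 to 16 and 0 to 53. The difference in share moved from 4.90 points to 9.39, 11.9 and 25.4 points without the condition on AA467197, thinned, and over cells with 0 Ly6c2 UMIs and M at least 200, and was 3.02 to 6.77 points with 1 mouse left out. Leaving out 1 mouse put the Ccl8 fold change between −1.64 (without HFD replicate 3) and 1.12 on the log2 scale, and it reversed to −0.32 with equal cell numbers and to −0.35 matched on C, and Ccr2 to 0.003 with the CPM filter alone, none of which passed a test. The causes of these changes were not tested, apart from fewer mice or cells by construction. No paired analysis was possible because the chow mice are numbered 9 and 11 and the HFD mice 1 and 3. Low genes are limited by depth, with 337222 to 679703 UMIs per sum.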
